A study of Mus musculus with 8 samples.

Results

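The L1Md subfamilies are the mouse LINE-1 elements that RepeatMasker style names mark with L1Md, the group that holds the youngest LINE-1 copies of the mouse genome. They were taken by name: every row of the deposited table that starts with L1Md and carries the family L1 and the class LINE. The rule found 6 of 18694 features, namely L1Md_A, L1Md_F, L1Md_F2, L1Md_F3, L1Md_Gf and L1Md_T. The table held 1097 repeat subfamilies beside 17597 genes, and 157 of the subfamilies were LINEs.

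RNA came from XX mouse embryonic stem cells of a Cast x 129S background, grown on inactivated fibroblast feeders. The cells of all 8 libraries carried METTL3 fused to FKBP12F36V, a degron that destroys the fusion protein when dTAG-13 is added, and a TetOn promoter in place of the endogenous Xist promoter. The labels put this promoter on the 129S allele, whereas the study's methods describe these clones in a line with the promoter on the Cast X chromosome, and the difference was not settled here. The treated group of 4 libraries was exposed to dTAG-13 over 26 hours, and the untreated group also has 4 libraries. Neither group was given doxycycline, so Xist was not induced. The cells came from clones C3 and H5, each a single derived line, which gave 2 libraries apiece to either group. The design asks which RNAs change when METTL3 is removed for about a day. For each feature the table gives 1 mean over all libraries together, beside the authors' own comparison of the groups, which was not used. L1Md RNA with and without dTAG-13 was therefore not compared here, and no value below has a spread between libraries or a test.

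LINE-1 elements copy themselves through an RNA intermediate, and that RNA encodes an RNA-binding protein and a reverse transcriptase. In the mouse, the subfamilies named A, T and Gf still hold full-length copies able to move, while those with F names are mostly older. Embryonic stem cells transcribe young LINE-1 copies, and their RNA carries m6A, the methyl mark that METTL3 writes and that YTHDC1 binds in the nucleus.

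L1Md_T was the most abundant LINE subfamily in these cells. Its mean count, the authors' mean over the libraries of reads divided by a size factor, was 52411. L1Md_F2 followed with a mean count of 15860, and L1Md_A with 13183. These 3 subfamilies held the first 3 places among LINEs. L1Md_F3 had a mean count of 6087 and L1Md_Gf one of 3052. L1Md_F had the fewest reads of the 6, with a mean count of 1585. The means thus spanned 33.1-fold from L1Md_F to L1Md_T. In that order, L1Md_T lay 3.30-fold above L1Md_F2, the widest gap between neighbours, whereas L1Md_F2 lay 1.20-fold above L1Md_A, the narrowest. Whether any of these neighbours differed beyond the spread between libraries could not be tested, since the spread is unknown.

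**Figure D1:**
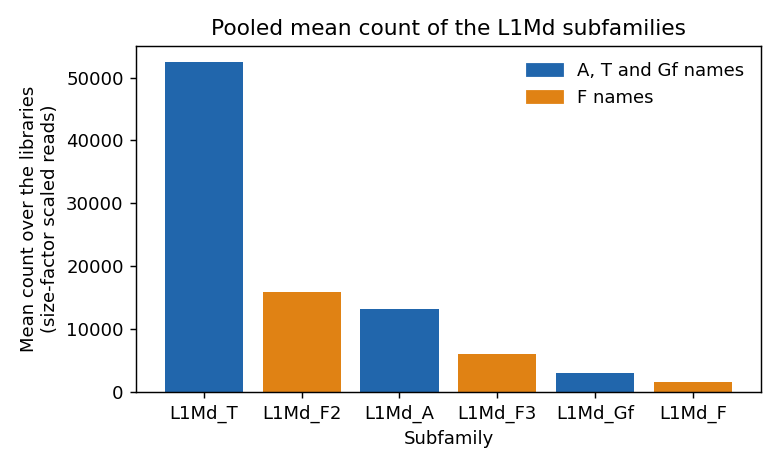
Mean count of each L1Md subfamily on the y axis (authors' mean over all libraries, in reads scaled by size factors), with subfamilies of the A, T and Gf names in blue and those of the F names in orange. The bars have no error because the table gives 1 value per subfamily. L1Md_T stands at 52411 and the other bars lie between 1585 and 15860.

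These values count reads over all copies of a subfamily in the genome. A subfamily with more or longer copies, or with copies that differ enough for a read to be placed uniquely, gathers more reads at the same output per copy. Copy numbers and lengths were not used here, so the order is one of read numbers and not of transcription per copy. Whether the reads came from LINE-1 promoters or from transcripts of genes that hold copies was not tested. Reads that fitted more than 1 place were dropped by the authors, and this loss falls most on near-identical copies, which young subfamilies hold.

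The subfamilies were also grouped by name, which does not follow descent, and the name groups did not separate into abundant and scarce ones. The 3 subfamilies with A, T and Gf names summed to a mean count of 68646, which was 74.5% of all L1Md reads, against 23531 (25.5%) for the 3 F names. Most of the first sum came from L1Md_T, which alone made up 56.9% of L1Md reads. L1Md_A and L1Md_Gf together summed to 16235, 0.690 times the F sum. L1Md_F2 contributed 17.2% of L1Md reads, L1Md_A 14.3%, L1Md_F3 6.60%, L1Md_Gf 3.31% and L1Md_F 1.72%. Without L1Md_T the A and Gf share was 40.8%. The ranks of both name groups interleaved, since an F name followed each of the A, T and Gf names in the order. The loss of reads that fitted more than 1 place may differ between the name groups, which was not tested.

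Together the L1Md subfamilies drew a large part of the LINE signal. They are 3.82% of LINE subfamilies by number, and their summed mean count of 92177 was 37.7% of the LINE sum of 244348. The share of LINE copies or bases that they make up was not used here, so no share expected from the genome is given. The 151 other LINE subfamilies shared the remainder, and the 20 most abundant of them had to be added up to reach the L1Md sum. L1Md_T alone held 21.4% of LINE reads, and without it the L1Md share of LINE reads was 20.7%. The L1Md share was 40.4% within the L1 family, which has 132 subfamilies. It was 5.36% of all repeat reads and 0.566% of the summed mean count of 16292717 over genes and repeats. The repeat rows include 7SK RNA and satellites, and the share was 6.90% over the rows of the classes LINE, SINE, LTR and DNA. Among all 1097 repeat rows, 6 had a higher mean count than L1Md_T.

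Most of the other L1 subfamilies, a set made up largely of ancient elements, had fewer reads than any L1Md subfamily. The median mean count was 9635 over the 6 L1Md subfamilies and 455 over the 126 other L1 subfamilies, a ratio of 21.2. The ratio was 11.8 when subfamilies with a mean count under 100 were left out. The 126 include the 4 mouse subfamilies named L1_Mus, with mean counts of 11690, 10796, 5194 and 1452, all above 455. All but the last of these lay within the L1Md range. Of the 126, 83 carry names of L1M plus a further character, a group of ancient elements with a median of 270. The row named just L1M, at 64.5, is not among the 83. The other L1 subfamilies ranged from 1.41 to 11690. Both sets overlapped: 19 of the 126 lay above L1Md_F, and 107 (84.9%) lay below it. No LINE outside L1Md lay above L1Md_A, 4 lay above L1Md_F3, 12 above L1Md_Gf and 24 above L1Md_F. L1Md_F, at 3.48 times the median of the other L1 subfamilies, was the member nearest to them, and L1Md_Gf stood at 6.71 times that median. Since subfamilies are not replicates, no test was made of the ratio.

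The 5 most abundant LINEs outside L1Md all belonged to the L1 family. L1_Mus3 had a mean count of 11690 and L1_Mus1 one of 10796. Both names denote mouse LINE-1 sequences outside the L1Md set, and both lay just under L1Md_A. L1MEg (7370), Lx3B (6914) and Lx9 (5906) came next, with L1Md_F3 ranked between the last of these and Lx3B. L1Md_T had 4.48 times the mean count of L1_Mus3 and 8.87 times that of Lx9. The mean counts of these 5 subfamilies summed to 42676, less than that of L1Md_T alone.

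**Figure D2:**
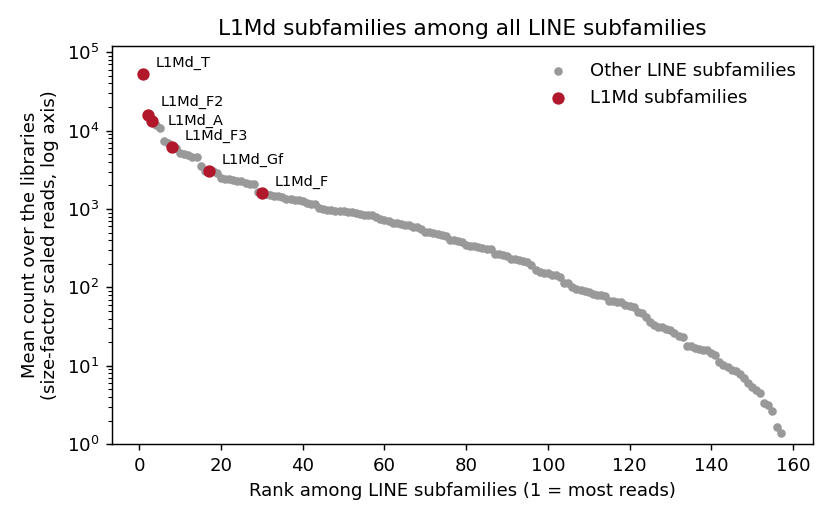
Mean count on a log y axis (authors' mean over all libraries, in reads scaled by size factors) against rank on the x axis for all 157 LINE subfamilies, with the 6 L1Md subfamilies as named red points and the others in grey. L1Md_T, L1Md_F2 and L1Md_A take ranks 1 to 3, L1Md_F3 rank 8, L1Md_Gf rank 17 and L1Md_F rank 30.

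Genes that act on LINE-1 were read from the same table to show which of that machinery these cells express. Levels of genes are given as mean count per kb of exon, a scale that the subfamilies lack. All 15 genes of the chromatin silencing list were present, from 86.6 for Suv39h1, a histone H3 lysine 9 methyltransferase, to 4534 for Trim28, the corepressor that zinc finger proteins bring to repeats (median 389). Setdb1, the methyltransferase that TRIM28 recruits, stood at 389 per kb. The subunits of the HUSH complex, which silences young LINE-1 copies, stood at 567 for Mphosph8, 367 for Fam208a and 106 for Pphln1, and their partner Morc2a at 342. Among DNA methylation genes, Uhrf1, which brings the maintenance enzyme to replicating DNA, had 1374 per kb, Dnmt3b 919, Dnmt1 867 and Dnmt3a 140.

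All 17 genes of the list of RNA handling factors were present too, between 60.9 and 772 per kb with a median of 246. The writer subunits stood at 135 per kb for Mettl3, 96.6 for Mettl14 and 772 for Wtap. Because the mean pools treated and untreated libraries, and the degron acts on protein, the Mettl3 value does not check the labels. Ythdc1, the nuclear m6A reader (chromosome 5, 86804221 to 86836659, GRCm38), had 260 per kb. Fto, an m6A demethylase, had the lowest value of the list at 60.9 per kb. The nuclear exosome adaptors Zcchc8, Rbm7 and Skiv2l2 had 289, 341 and 493 per kb. Mov10, a helicase that restricts retrotransposition, had 276 per kb. Ncl, the nucleolar protein that binds LINE-1 RNA in stem cells, had 1678 per kb, and Yy1, a factor that binds some LINE-1 promoters, had 390.

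L1td1 is a gene derived from the first open reading frame of a LINE-1 element and is known as a stem cell RNA-binding protein. It lies on chromosome 4 from 98726734 to 98738480 (GRCm38, plus strand) and had a mean count of 8599, which is 2709 per kb of exon. That was above the per kb values of 14 of the 15 chromatin silencing genes. Only Trim28 of that list was higher.

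**Figure D3:**
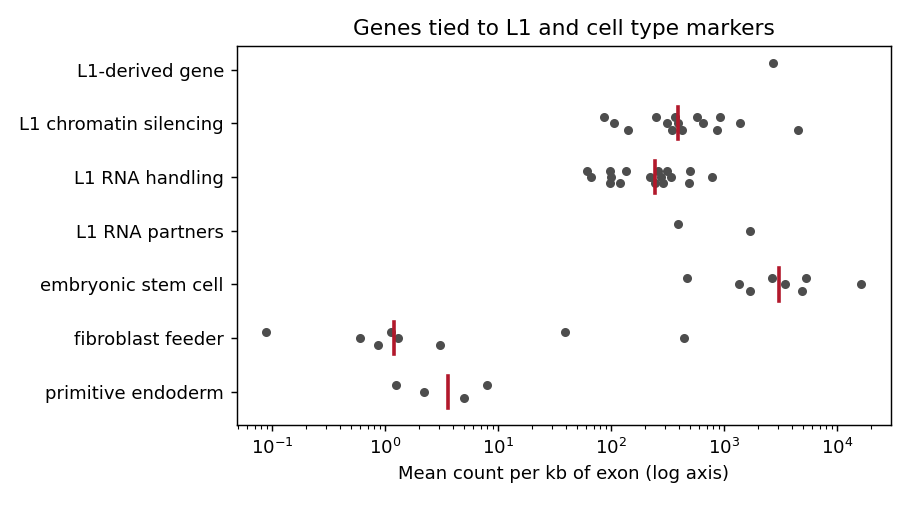
Mean count per kb of exon on a log x axis (authors' mean over all libraries, divided by the exon length of the gene), 1 point per gene and 1 line of points per list, with red bars at the median of lists of over 2 genes. The chromatin silencing list has its median at 389 per kb and the RNA handling list at 246, below the stem cell markers (3038) and above both marker lists of other cells.

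The labelled cell type was checked against its markers. All 8 stem cell markers were present at 464 to 16142 per kb, with Pou5f1 at 5309 and Nanog at 2646. The 8 fibroblast feeder markers ranged from 0.0882 for Postn to 437 for Vim, which stem cells also express, and the highest of the other 7 was Thy1 at 38.7. Col1a1 and Col1a2, collagen genes of the same list, stood at 3.02 and 1.11 per kb. The 4 primitive endoderm markers stood at 1.24 to 7.91 per kb. What part of the L1Md reads came from feeder cells was not tested.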

How the data were processed

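The labels describe 8 total RNA libraries; the extraction text of the labels describes chromatin RNA, while the study's methods describe total RNA. The authors removed rRNA reads with bowtie2, aligned pairs with STAR to N-masked mm10 keeping uniquely placed reads, removed duplicates with Picard, and counted genes and repeat subfamilies with TEtranscripts at default settings. The deposited signal column, used here as the mean count, is the mean over libraries of reads divided by size factors. The 5 other deposited columns hold the authors' own comparison of the groups (fold change, standard error, statistic and p-values) and were not used. Strand use in counting is not settled by the sources used here, so reads from a gene and from a repeat on its other strand may not be separated. Depth of single libraries is unknown.

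Python 3.11.15 with pandas 2.3.3 gave sums, ranks, medians and ratios, and the code for sums and shares was checked on a small constructed table with known shares. No filter was applied. Exon lengths were the union of exons in GENCODE vM21 (GRCm38). All genes of the lists had a row, and 2 list names were other names of genes already listed. Named features were every L1Md subfamily, the 5 other LINEs with the highest mean, L1td1, and genes of the lists for L1 silencing, RNA handling and partners and of cell type markers. Members and lists were chosen with earlier results of these data known. Alternatives were other denominators, minimum means, the mean in place of the median, and leaving out L1Md_T or the F names.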

Additional observations from a re-analysis of the deposited data

How the results depend on the processing

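The share of L1Md in all reads was 0.566% with or without features under a mean count of 10, 5.36% over repeats alone, and 6.90% over LINE, SINE, LTR and DNA rows alone. The last of these, and the removal of the F names, were chosen after seeing the data. The share in LINE reads was 40.4% within the L1 family, 31.1% without the F names and 20.7% without L1Md_T, each left out of the LINE sum as well. The ratio of the L1Md median to that of other L1 subfamilies was 19.0 and 11.8 with a minimum mean count of 10 and 100, and 14.2 for means in place of medians. The share of A, T and Gf names fell below that of the F names without L1Md_T, to 40.8%. No paired analysis was possible because the table holds no value per library. For the same reason the planned test of dTAG-13 against untreated cells, its alternative scaling and filter, and the removal of single libraries were not run. Intervals for counting error were not given, since the values are scaled means.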

Other observations

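L1MEg stood apart among 83 L1 subfamilies whose names are L1M plus a further character and are not L1Md. They are a group of ancient elements shared with other mammals, and the row named just L1M was left out. The group was singled out after its values were seen. L1MEg had a mean count of 7370, which is 2.41 times that of L1M5 (3063), the next of the group, and 27.3 times the group's median of 270. It held 15.8% of the reads of the group and ranked above L1Md_F3, L1Md_Gf and L1Md_F. No value per copy was available, so whether the reads came from a few copies or many was not tested.

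The 4 subfamilies named L1_Mus summed to a mean count of 29132, or 11.9% of LINE reads, more than the 3 L1Md subfamilies with F names. L1_Mus3 and L1_Mus1 held most of this, while L1_Mus2 had 5194 and L1_Mus4 had 1452 and lay below L1Md_F.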
